A study of Mus musculus with 6 samples.

Results

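The genes described here make MHC class II, the surface receptor with which B cells show peptides to CD4+ T cells. They are 10 genes, found by name in the deposited expression table, of 22788 gene rows in all, and all 10 passed the filter that left 9425 genes for testing. RNA was sequenced from 6 libraries of mouse B cells, 3 labelled wild type (WT) and 3 from mice with floxed Ppp2r1a and Cre, called PP2Aa-deficient. A plate sheet deposited with the table instead calls the WT wells a miRNA control and the PP2Aa-deficient wells a miRNA target, and this was not resolved. All mice were 8 weeks old on a C57BL/6 background. In the mutant, Cre deletes the floxed Ppp2r1a gene, whose product, PP2Aa, is a scaffold that holds the phosphatase PP2A together. The labels do not say whether WT mice carried Cre, name spleen as the tissue but a peritoneal wash as the source, and do not say that each library is a separate animal. The p-values below therefore measure the spread between these libraries. Replicate numbers used below follow the order of the samples and are not given in the labels. Equal numbers therefore do not pair a WT with a PP2Aa-deficient library.

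A class II molecule is a pair of an alpha and a beta chain. The genes H2-Aa and H2-Ab1 encode the pair called I-A, and H2-Eb1 encodes the beta chain of the pair called I-E. H2-Eb2 encodes a related beta chain. In C57BL/6 mice the I-E alpha gene is a pseudogene, listed in the table as H2-Ea-ps, so the I-E beta chain lacks its usual partner. Cd74 encodes the invariant chain, which holds new chain pairs and fills their groove until it is digested. H2-DM, made from H2-DMa with H2-DMb1 or H2-DMb2, then exchanges the last invariant chain fragment for peptide, and H2-O, made from H2-Oa and H2-Ob, restrains H2-DM in B cells. The coactivator CIITA drives these genes together from promoters that carry an X box, bound by the RFX complex, and a Y box, bound by NF-Y.

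Promoter windows from RefSeq (GRCm38.p6), 300 bases long and spanning each start, were searched for 8 of the 10 genes. None was at hand for H2-Ab1, and Cd74 was left out of the search. Those of 4 are shown because they belong to neighbours or partners with unlike values in these data: the chain genes H2-Eb1 and H2-Aa, and the H2-O pair. Capitals mark AGCAAC, the core of the X box, and TGATTGG, the Y box, searched on both strands. Each sequence reads 5′ to 3′ on the strand of its gene. The windows lie at chr17:34305617-34305916 on the plus strand, chr17:34287774-34288073 on the minus strand, and chr17:34092129-34092428 and chr17:34238655-34238954 on the plus strand, in the order printed.
H2-Eb1: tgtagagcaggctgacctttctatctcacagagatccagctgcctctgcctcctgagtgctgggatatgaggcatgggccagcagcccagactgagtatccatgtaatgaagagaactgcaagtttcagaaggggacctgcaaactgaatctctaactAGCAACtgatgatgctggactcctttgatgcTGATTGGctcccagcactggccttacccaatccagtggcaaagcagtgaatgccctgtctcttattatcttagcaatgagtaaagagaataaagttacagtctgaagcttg
H2-Aa: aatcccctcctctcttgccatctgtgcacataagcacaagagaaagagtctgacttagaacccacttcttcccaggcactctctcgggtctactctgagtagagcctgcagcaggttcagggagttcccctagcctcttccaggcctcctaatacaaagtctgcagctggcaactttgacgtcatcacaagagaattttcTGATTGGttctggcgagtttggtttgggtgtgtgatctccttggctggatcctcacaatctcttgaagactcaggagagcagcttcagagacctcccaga
H2-Oa: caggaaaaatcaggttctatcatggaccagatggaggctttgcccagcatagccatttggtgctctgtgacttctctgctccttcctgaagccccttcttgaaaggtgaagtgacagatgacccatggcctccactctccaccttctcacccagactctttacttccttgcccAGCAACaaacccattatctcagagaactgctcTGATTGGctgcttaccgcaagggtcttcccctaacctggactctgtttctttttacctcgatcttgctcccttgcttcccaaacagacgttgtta
H2-Ob: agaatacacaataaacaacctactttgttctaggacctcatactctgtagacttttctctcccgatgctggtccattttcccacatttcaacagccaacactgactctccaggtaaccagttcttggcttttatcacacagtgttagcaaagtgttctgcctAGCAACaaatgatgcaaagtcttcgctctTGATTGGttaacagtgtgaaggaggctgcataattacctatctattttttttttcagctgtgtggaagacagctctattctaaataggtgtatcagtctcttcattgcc
The Y box letters were found in 7 of the 8 genes, against 7.8% of 32544 windows of the same length over all genes. The X box letters were found in 4 of the 8, namely H2-Eb1, H2-Eb2, H2-Oa and H2-Ob, against 14.8% of all windows. Both stood in the same window in those 4 genes and in 1.37% of all windows. They were 25 bases apart in H2-Eb1 and H2-Eb2, 26 in H2-Oa and 23 in H2-Ob. H2-DMa, with 2 windows, matched neither. The letters were chosen with these windows in view, and a missing match says only that these exact letters are not in this window.

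Levels are given in FPKM, fragments scaled by transcript length and library size, so genes can be compared per length. In WT libraries Cd74 had the highest FPKM of the set, at 11097 ± 1842 (SD, n = 3), and ranked 3 among all genes. H2-Ab1 followed at 7758 ± 783 FPKM and H2-Aa at 7368 ± 48.4 FPKM, whose libraries overlapped. H2-Eb1 was at 1529 ± 48.8 FPKM, below H2-Ab1 by a factor of 5.07. H2-DMa (447 ± 66.9 FPKM), H2-Ob (251 ± 17.8) and H2-DMb2 (183 ± 7.38) came next without overlap. H2-Oa (164 ± 23.1 FPKM) overlapped H2-DMb2, H2-DMb1 was at 104 ± 6.04 FPKM, and H2-Eb2 was lowest at 11.001 ± 2.86 FPKM. In PP2Aa-deficient libraries the order of group means differed in 1 place, where H2-DMb2 (189 ± 11.03 FPKM) stood above H2-Ob (171 ± 53.3). H2-Eb1 kept its place by mean there, through replicate 2 at 1313 FPKM. In replicates 1 and 3 it lay below H2-DMa, at 199 against 340.4 FPKM and at 174 against 316 FPKM. Its lowest library, at 174 FPKM, also lay below all H2-DMb2 libraries. From steps in the low FPKM values, the libraries held about 2070000 to 3720000 fragments. That puts roughly 46 to 130 fragments behind H2-Eb2, 280 or more behind each other member and 27000 or more behind Cd74.

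None of the 10 genes passed limma (log2(FPKM + 1), Benjamini-Hochberg adjusted p under 0.05 over all genes), where 0.0318% of tested genes were called lower and 0% higher. The change was uneven across the set. At an unadjusted p under 0.05, 6 of the 10 were lower in PP2Aa-deficient B cells, against 4.41% of all tested genes, and 0 were higher, against 5.06% (9.47% in either direction). In 5 of the 10 every PP2Aa-deficient library lay below every WT library, against 7.4% of all tested genes, and in 0 did every one lie above, against 7.7%. The median log2 change of the 10 was -0.34, beside -0.01 over all tested genes. Without PP2Aa-deficient replicate 2 the 6 became 4, against 4.73%. In that fit H2-Eb1 alone of the set passed over all genes, where 12 of 9223 tested genes were called lower and 1 higher. Without PP2Aa-deficient replicate 3 the count was 3, against 3.49%, namely H2-Eb1, H2-Eb2 and H2-DMa. It was 4 without WT replicate 1 (against 4.49%), WT replicate 2 (3.1%) or PP2Aa-deficient replicate 1 (4.16%). Xist was at 65.2 FPKM in WT replicate 1 and 84.5 FPKM in PP2Aa-deficient replicate 1 and did not exceed 0.116 FPKM elsewhere, and with a term for it the count was 6, against 4.64%. In bulk RNA, fewer cells of a type and less RNA per cell cannot be told apart.

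**Figure D1:**
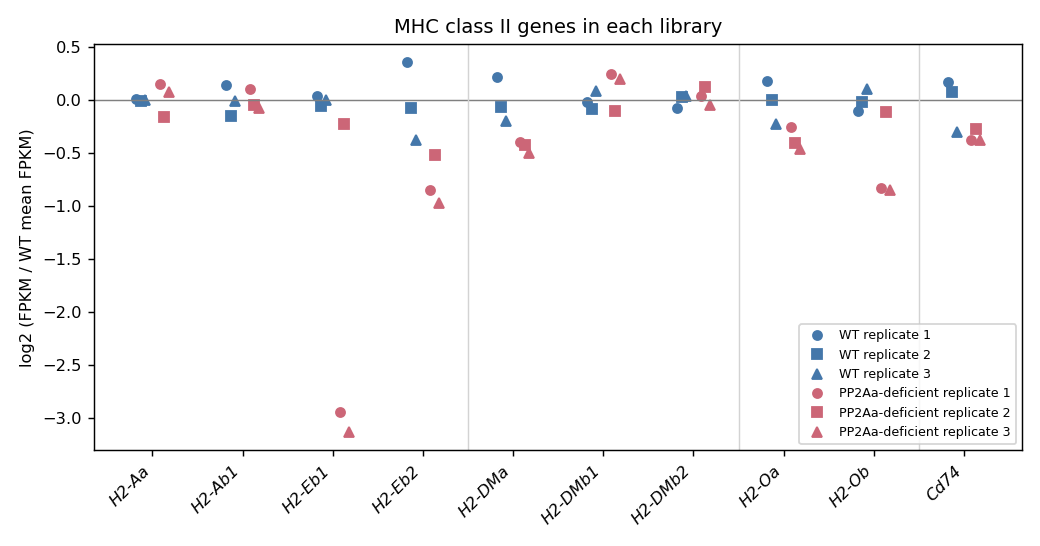
Each point is 1 library, as the log2 of its FPKM over the WT mean FPKM of that gene (vertical axis), for the 10 class II genes (horizontal axis; grey lines part chains, H2-DM, H2-O and Cd74). WT is blue and PP2Aa-deficient red, with replicates 1 to 3 as circle, square and triangle. H2-Eb1 in PP2Aa-deficient replicates 1 and 3 lies far below all other points, and replicate 2 lies near WT.

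H2-Eb1, the I-E beta chain, showed the lowest values relative to WT. It was at 1575, 1478 and 1533 FPKM in WT replicates 1 to 3, and at 199, 1313 and 174 FPKM in PP2Aa-deficient replicates 1 to 3. Replicates 1 and 3 held 13.0% and 11.4% of the WT mean and replicate 2 held 85.9%, so the mutant group split while the WT libraries lay close together. The limma log2 change was -2.09 (SE 0.65, 95% interval -3.57 to -0.62, adjusted p = 0.374), with all 3 mutant libraries below WT. Without PP2Aa-deficient replicate 2 it was -3.03 (SE 0.13) with a limma adjusted p of 0.000101, and across all other settings the adjusted p ran up to 0.665. This gene rests on about 710 fragments in its lowest library.

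The I-A chains, which lie next to H2-Eb1 on the chromosome, stayed near their WT levels in all mutant libraries. H2-Ab1 was at 8566, 7002 and 7704 FPKM in the WT libraries, against 8364, 7513 and 7395 FPKM in the PP2Aa-deficient ones. H2-Aa was at 7416, 7319 and 7368 FPKM in the WT libraries, against 8195, 6627 and 7779 FPKM in the PP2Aa-deficient ones. Both genes overlapped between groups. The log2 change of H2-Ab1 was 0.003 (95% interval -0.26 to 0.27) and that of H2-Aa 0.03 (-0.23 to 0.29), with limma adjusted p of 0.999 and 0.963. The sign of both turned negative under quantile normalization, at -0.14 and -0.17.

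H2-Eb2, the second E beta chain, was the lowest-expressed member. It was at 14.1, 10.4 and 8.46 FPKM in the WT libraries, against 6.12, 7.70 and 5.61 FPKM in the PP2Aa-deficient ones, which all lay below WT. Its log2 change was -0.67 (SE 0.21, limma adjusted p = 0.379). The mutant libraries were at 55.6%, 70.0% and 51.0% of the WT mean, again with replicate 2 nearest to WT.

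Within each library, the ratio of 2 genes is free of scaling between libraries. H2-Eb1 was at 0.184, 0.211 and 0.199 times the FPKM of H2-Ab1 in the WT libraries, against 0.0237, 0.175 and 0.0235 times in the PP2Aa-deficient ones. The groups did not overlap, and PP2Aa-deficient replicate 2 lay just under the lowest WT library. The ratio of H2-Aa to H2-Ab1 ran from 0.866 to 1.05 in the WT libraries, against from 0.882 to 1.05 in the PP2Aa-deficient ones, which overlapped. With 3 libraries against 3 an exact test of such a ratio could not pass 0.05, and none was run.

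The alpha chain of H2-DM differed from its beta chains. H2-DMa was at 521, 429 and 391 FPKM in the WT libraries, against 340.4, 333 and 316 FPKM in the PP2Aa-deficient ones. All mutant libraries lay below WT and close to each other, at 70.8% to 76.2% of the WT mean. The log2 change was -0.43 (SE 0.13, limma adjusted p = 0.368), and its unadjusted p stayed under 0.05 in all 14 other settings. H2-DMb1 was at 103, 98.8 and 111 FPKM in the WT libraries, against 124, 97.1 and 119.8 FPKM in the PP2Aa-deficient ones. H2-DMb2 was at 175, 187 and 188 FPKM in the WT libraries, against 188, 199.9 and 178 FPKM in the PP2Aa-deficient ones. Both beta genes overlapped between groups, with log2 changes of 0.12 (95% interval -0.18 to 0.41) and 0.04 (-0.20 to 0.28). These 2 genes are close copies: 27.2% of the 50-base words in H2-DMb1 transcripts recur in H2-DMb2 (GENCODE M21), so the split of reads between them is uncertain. No 50-base word was shared between any other pair of the 10 genes. The ratio of H2-DMa to H2-DMb1 was 5.04, 4.35 and 3.53 in the WT libraries, against 2.75, 3.43 and 2.64 in the PP2Aa-deficient ones, without overlap. In RefSeq H2-DMa overlaps Brd2, a bromodomain gene, which was at 47.2 to 54.1 FPKM in the WT libraries, against 48.6 to 58.2 FPKM in the PP2Aa-deficient ones.

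Both chains of H2-O were lower in every mutant library, in 2 different patterns, but under quantile normalization both overlapped between groups. H2-Oa was at 187, 165 and 141 FPKM in the WT libraries, against 138, 124 and 119 FPKM in the PP2Aa-deficient ones, a narrow gap with all mutant libraries alike. H2-Ob was at 235, 248 and 270.3 FPKM in the WT libraries, against 142, 233 and 139.6 FPKM in the PP2Aa-deficient ones. In H2-Ob, as in H2-Eb1, replicates 1 and 3 were low, at 56.4% and 55.6% of the WT mean, and replicate 2 was near WT at 92.7%. The log2 changes were -0.36 (SE 0.14) for H2-Oa and -0.59 (SE 0.20) for H2-Ob, with limma adjusted p of 0.453 and 0.405. The unadjusted p was under 0.05 in 9 of the 14 other settings for H2-Oa and in 11 for H2-Ob. Without PP2Aa-deficient replicate 2 the log2 change of H2-Ob was -0.83 (SE 0.13, limma adjusted p = 0.0949). The ratio of H2-Oa to H2-Ob was 0.795, 0.664 and 0.521 in the WT libraries, against 0.974, 0.534 and 0.853 in the PP2Aa-deficient ones, which overlapped. BC051537, which overlaps H2-Oa in RefSeq, did not exceed 0.265 FPKM.

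Cd74, the invariant chain, was at 12533, 11738 and 9021 FPKM in the WT libraries, against 8537, 9187 and 8561 FPKM in the PP2Aa-deficient ones. The groups overlapped, because WT replicate 3 lay below PP2Aa-deficient replicate 2. The log2 change was -0.33 (SE 0.14, 95% interval -0.65 to -0.01, limma adjusted p = 0.511). Its unadjusted p was under 0.05 in 5 of the 14 other settings. The ratio of Cd74 to H2-Ab1 was 1.46, 1.68 and 1.17 in the WT libraries, against 1.02, 1.22 and 1.16 in the PP2Aa-deficient ones, and overlapped too.

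**Figure D2:**
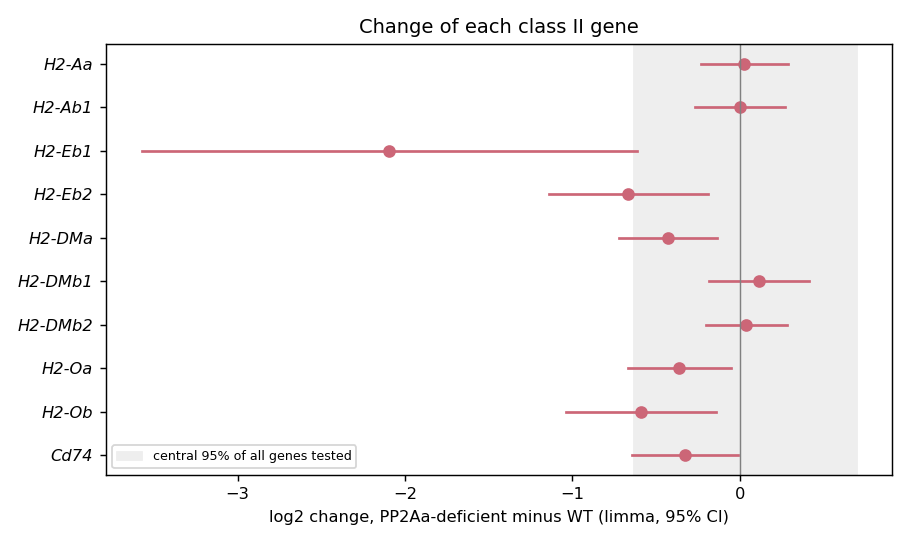
Points are limma log2 changes, PP2Aa-deficient minus WT (horizontal axis), of the 10 class II genes (vertical axis), with bars for the 95% interval. The grey band holds the central 95% of the changes of all tested genes, from -0.63 to 0.70. H2-Eb1, at -2.09, lies outside the band with the widest interval, and H2-Eb2, at -0.67, lies just outside it.

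**Figure D3:**
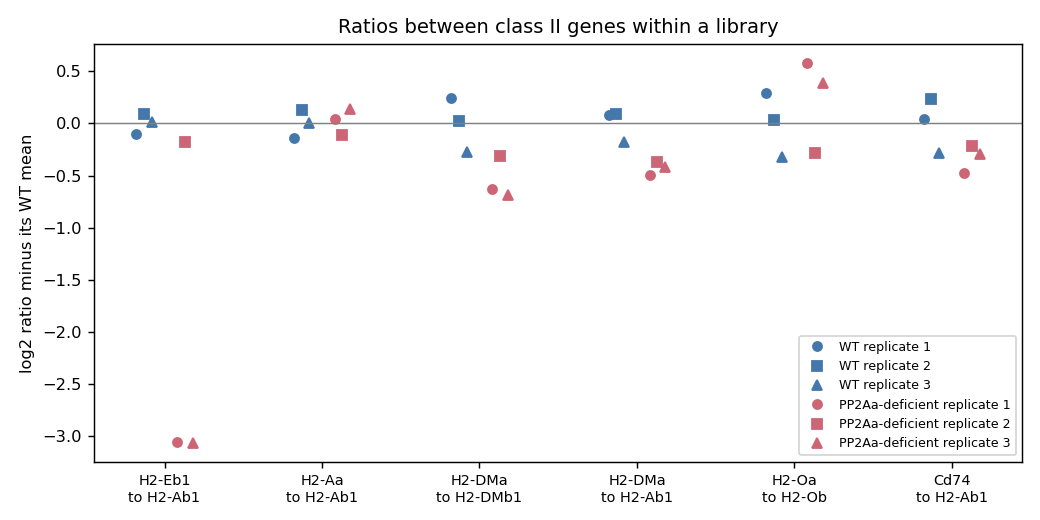
Points are log2 ratios of 2 genes in 1 library (log2 of FPKM + 1), less the WT mean of that ratio (vertical axis), for 6 pairs (horizontal axis). WT is blue and PP2Aa-deficient red, with replicates 1 to 3 as circle, square and triangle. The groups do not overlap for H2-Eb1 to H2-Ab1, H2-DMa to H2-DMb1 and H2-DMa to H2-Ab1, and overlap for the other 3 pairs.

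In RefSeq, 9 of the 10 genes lie on chromosome 17, as does Ppp2r1a, and Cd74 lies on chromosome 18. For the 9, loss of PP2Aa and position on the chromosome that carries the floxed gene cannot be told apart. Ppp2r1a itself was at 85.7, 85.4 and 83.7 FPKM in the WT libraries, against 31.3, 56.2 and 28.2 FPKM in the PP2Aa-deficient ones. Replicate 2, which kept most H2-Eb1 and H2-Ob, thus also kept the most Ppp2r1a among the mutant libraries. The pseudogene H2-Ea-ps, next to H2-Eb2, ran the other way, at 262, 288 and 378 FPKM in the WT libraries, against 524, 328 and 511 FPKM in the PP2Aa-deficient ones. There, replicates 1 and 3 lay above all WT libraries and replicate 2 lay among them (log2 change 0.54, SE 0.21, limma adjusted p = 0.468).

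In the RefSeq order H2-Ob, H2-Ab1, H2-Aa, H2-Eb1, H2-Eb2, H2-Ea-ps, genes low in replicates 1 and 3 therefore enclosed genes that were not. Of 20 tested neighbours from Tapbp to Notch4 that are not members, 0 passed limma. At an unadjusted p under 0.05, 0 were lower, against 4.41% of all tested genes, and 2 were higher, H2-Ea-ps and H2-Ke6, against 5.06%. In 1 neighbour, Tapbp, every PP2Aa-deficient library lay below every WT library, against 7.4% of all tested genes. Tapbp was at 77.0 to 79.8 FPKM in the WT libraries, against 61.1 to 74.3 FPKM in the PP2Aa-deficient ones. In 1, H2-Ke6, every one lay above, against 7.7%. H2-Ke6 was at 8.13 to 13.1 FPKM in the WT libraries, against 18.6, 40.3 and 14.4 FPKM in the PP2Aa-deficient ones, highest in replicate 2. Next by p were Btnl2, a butyrophilin-like gene at 2.66 to 5.61 FPKM in the WT libraries, against 1.15 to 2.77 FPKM in the PP2Aa-deficient ones, and Slc39a7, a zinc transporter gene at 22.8 to 28.7 FPKM, against 18.5 to 25.1 FPKM, and both overlapped. The median log2 change of the 20 was 0.01. Tap1, Tap2, Psmb8 and Psmb9, which supply peptides to MHC class I and lie between the H2-DM genes and H2-Ob, all overlapped between groups.

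**Figure D4:**
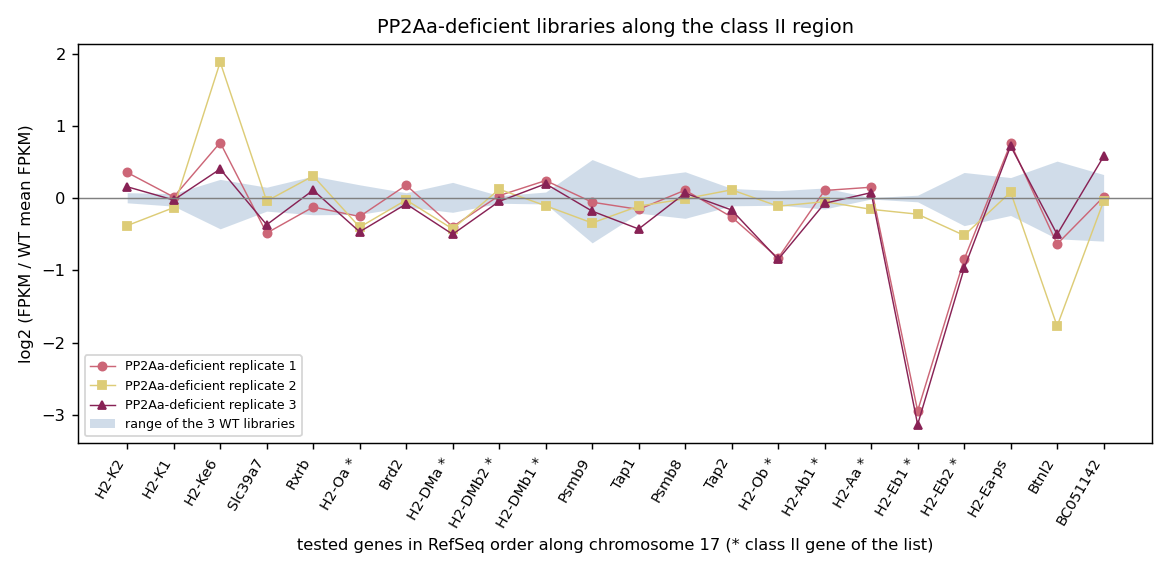
Tested genes of chromosome 17 from H2-K2 to BC051142 stand in RefSeq order, not to distance (horizontal axis; a star marks the class II genes), against log2 of FPKM over the WT mean (vertical axis). Lines are the 3 PP2Aa-deficient libraries and the blue band spans the WT libraries. Replicates 1 and 3 drop at H2-Ob, H2-Eb1 and H2-Eb2 and lie above the band at H2-Ea-ps, while replicate 2 lies near or inside the band at H2-Ob and H2-Ea-ps.

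Likeness to H2-Eb1 was measured as Pearson's r of log2(FPKM + 1) over the 6 libraries, as a description with no test. All points come from the same 6 libraries, and H2-Eb1 itself varies mainly between 2 low libraries and the other 4. Among members r was 0.99 for H2-Ob, 0.81 for H2-Eb2, 0.67 for H2-DMa, 0.66 for Cd74 and 0.57 for H2-Oa. It was 0.22 for H2-DMb2, -0.12 for H2-Ab1, -0.74 for H2-Aa and -0.86 for H2-DMb1. Among 5434 other genes with a mean of at least 5 FPKM, the 5 most alike were Vars, Mark2, Ctrcos, Snrpc and Ppp1r16b, with r from 0.988 to 0.998. Vars, a valyl-tRNA synthetase gene, and Snrpc, encoding the U1-C protein of the spliceosome, lie on chromosome 17, and the other 3 on chromosomes 19, 4 and 2. Vars was at 29.3, 30.5 and 28.8 FPKM in the WT libraries, against 8.49, 28.7 and 7.67 FPKM in the PP2Aa-deficient ones. Snrpc was at 12.5, 11.9 and 13.7 FPKM in the WT libraries, against 6.71, 12.2 and 6.83 FPKM in the PP2Aa-deficient ones. Ctrcos was at 10.4, 10.7 and 17.7 FPKM in the WT libraries, against 0, 11.4 and 0 FPKM in the PP2Aa-deficient ones. In Mark2, a kinase gene, and Ppp1r16b, a phosphatase regulator gene, the split was narrower. Mark2 was at 7.39, 7.59 and 7.60 FPKM in the WT libraries, against 5.11, 7.38 and 4.75 FPKM in the PP2Aa-deficient ones. Ppp1r16b was at 62.5, 62.2 and 63.6 FPKM in the WT libraries, against 52.9, 61.8 and 50.0002 FPKM in the PP2Aa-deficient ones. All 5 genes had replicates 1 and 3 low and replicate 2 near WT, which follows from their choice by likeness to H2-Eb1. Ppp2r1a ranked 17 of the 5434, with r = 0.965, and H2-Ea-ps ranked 5404, with r = -0.91.

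**Figure D5:**
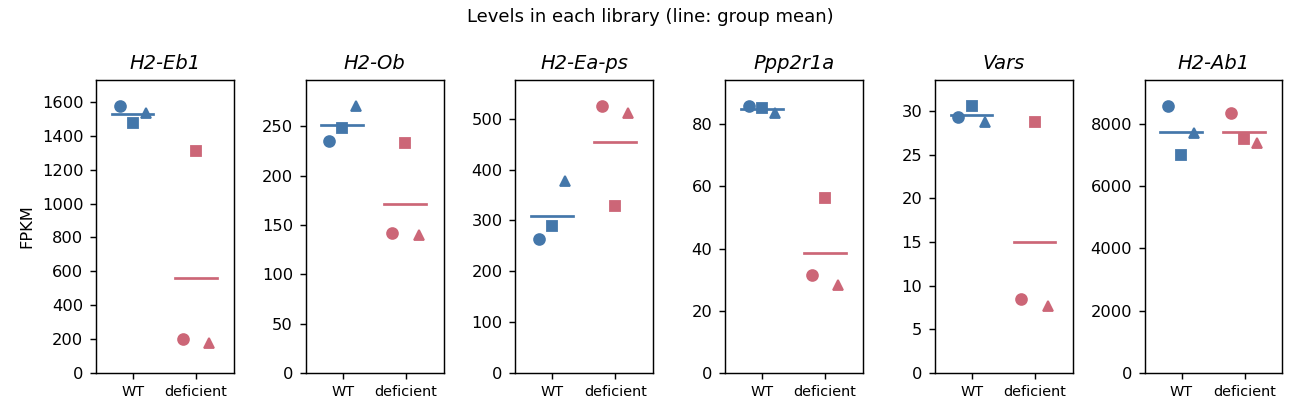
Points are FPKM (vertical axes, from 0) in each library, with WT in blue and PP2Aa-deficient in red, replicates 1 to 3 as circle, square and triangle, and lines for group means. In H2-Eb1, H2-Ob and Vars, PP2Aa-deficient replicates 1 and 3 are low and replicate 2 is near WT. In Ppp2r1a replicate 2, at 56.2 FPKM, lies between, in H2-Ea-ps replicates 1 and 3 are high, and in H2-Ab1 the groups overlap.

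The 5 genes most like Cd74, by the same measure, were Rac2, Rpn1, Srebf1, Ddx49 and Atp6v0d1, with r from 0.984 to 0.991. All 5 were higher in WT replicates 1 and 2 than in WT replicate 3. Rac2, encoding a small GTPase of blood cells, was at 284, 278 and 226 FPKM in the WT libraries, against 222, 237 and 217 FPKM in the PP2Aa-deficient ones. The 5 genes were chosen by likeness to Cd74 over these libraries, so their sharing of its pattern follows from the choice. In Cd74 the WT libraries split, which the H2-Eb1 pattern did not show.

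Of the 8 genes listed as regulators of class II transcription, 7 were tested and 0 passed limma. Ciita, encoding the coactivator, was at 31.6, 32.8 and 35.6 FPKM in the WT libraries, against 23.5, 33.9 and 30.98 FPKM in the PP2Aa-deficient ones, which overlapped (log2 change -0.19, SE 0.16, limma adjusted p = 0.786). Rfx5, a subunit of the X box complex, was at 3.68, 4.13 and 2.99 FPKM in the WT libraries, against 7.75, 7.30 and 5.85 FPKM in the PP2Aa-deficient ones. It was thus higher in every mutant library, replicate 2 included (log2 change 0.79, SE 0.18, limma adjusted p = 0.244). The other tested X box subunit, Rfxank, was at 3.54 to 5.51 FPKM in the WT libraries, against 2.29 to 3.58 FPKM in the PP2Aa-deficient ones, and Rfxap was too low to test. Nfyc, a subunit of the Y box complex, was at 41.8, 40.3 and 43.1 FPKM in the WT libraries, against 31.5, 37.4 and 29.7 FPKM in the PP2Aa-deficient ones (log2 change -0.34, SE 0.13, limma adjusted p = 0.468). Nfya, Nfyb and Creb1 overlapped between groups. The median log2 change of the 7 was -0.12.

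Cd83, whose protein protects surface class II from turnover, was at 1305, 1385 and 1520.1 FPKM in the WT libraries, against 940.3, 1117 and 1005 FPKM in the PP2Aa-deficient ones. All mutant libraries lay below WT (log2 change -0.46, SE 0.11, limma adjusted p = 0.250). The ubiquitin ligase genes March1 and March8, which tag class II for turnover, were not found by name among the gene rows. Rows that carried dates as names, 27 in all, had been left out. Of 9 lysosomal genes that cut or unfold antigen, 0 passed limma, and their median log2 change was 0.003. Ifi30, the lysosomal thiol reductase, was at 331, 237 and 235 FPKM in the WT libraries, against 182, 201 and 183 FPKM in the PP2Aa-deficient ones (log2 change -0.49, SE 0.15, limma adjusted p = 0.374). Ctss, the cathepsin that trims the invariant chain in B cells, was at 368 to 421 FPKM in the WT libraries, against 379 to 450 FPKM in the PP2Aa-deficient ones.

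Markers of B cells were present throughout, with a summed level of 6 genes of 2924 to 3059 FPKM in the WT libraries, against 2857 to 3258 FPKM in the PP2Aa-deficient ones. The summed level of 11 macrophage genes was 194.5 to 368 FPKM in the WT libraries, against 111 to 169 FPKM in the PP2Aa-deficient ones, most of it Apoe, and 6 of 8 tested genes had lower estimates. Emr1, the gene of the macrophage marker F4/80, was at 8.59, 2.93 and 3.84 FPKM in the WT libraries, against 0.242, 1.91 and 0.250 FPKM in the PP2Aa-deficient ones. The groups did not overlap (limma adjusted p = 0.245). Replicate 2 was nearest to WT, but at 37.2% of the WT mean, where H2-Eb1 held 85.9%. The 2 tested genes with higher estimates, Cd68 and Lyz2, overlapped between groups, as did C1qa, C1qb, C1qc and Cd14. Cd68 was at 9.76 to 12.5 FPKM in the WT libraries, against 10.8 to 11.8 FPKM in the PP2Aa-deficient ones. Lyz2 was at 8.49 to 13.3 FPKM in the WT libraries, against 9.51 to 13.6 FPKM in the PP2Aa-deficient ones. In that list Fcgr1 was at 0 in all libraries but 1, and Csf1r and Mrc1 did not exceed 2.202 FPKM. The summed level of 10 dendritic cell genes was 1297 to 1609 FPKM in the WT libraries, against 994 to 1435 FPKM in the PP2Aa-deficient ones, most of it Ccr7, which B cells also express, and 5 of 6 tested genes had lower estimates. Clec9a (37.6% of WT by group mean), Itgax (55.4%) and Flt3 (71.3%) lay below WT in every mutant library, at no more than 3.77 FPKM in any library. Among the mutant libraries, replicate 2 was lowest in Clec9a and Itgax, at 32.1% and 39.5% of the WT mean. In Flt3 replicate 2 was highest, at 89.7%. On the same list Cd209a lay above WT in every mutant library, but was too low to test. It was at 0.296 to 0.721 FPKM in the WT libraries, against 0.921 to 1.86 FPKM in the PP2Aa-deficient ones. Batf3, the 1 tested gene with a higher estimate, overlapped between groups, as did Siglech, Xcr1 and Zbtb46. Clec10a was at 0 in all libraries but 1, and Zbtb46 did not exceed 3.45 FPKM. The summed level of 6 plasma cell genes was 1273 to 1951 FPKM in the WT libraries, against 685 to 941 FPKM in the PP2Aa-deficient ones. All 6 had lower estimates, and Igj, Sdc1, Xbp1 and Prdm1 did not overlap. Beside the counts of these 3 lists, 4818 of all 9425 tested genes had lower estimates. Of all tested genes 7.4% lay below WT in every mutant library. For 6 T cell genes the summed level was 4.66 to 8.05 FPKM in the WT libraries, against 5.43 to 7.54 FPKM in the PP2Aa-deficient ones. The part of these cells in the class II values was not tested.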

How the data were processed

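The authors deposited 1 table of FPKM values with 1 column per library, laid out as by Cuffnorm per the file headers. The submitters' processing notes list Cuffnorm, Cufflinks 2.2.1, TopHat2 2.0.10 and BWA, without role or order. For genome build, annotation, strand and scaling: not given in the sources used here. Columns were tied to samples by the well names in the table. Of 22815 rows, 27 carried dates as names and were left out. Groups came from the source labels. Testing, for genes reaching 1 FPKM in 3 or more of the 6 libraries, was with limma 3.58.1 (R 4.3.3) on log2(FPKM + 1), two-sided, with a mean-variance trend and Benjamini-Hochberg adjustment over 9425 genes. This scale understates changes of low genes. The fit was tested on simulated data. FPKM leaves out depth. Fragment numbers are estimates from the lowest FPKM steps with GENCODE M21 lengths, whose build may differ. The members, lists, tests and rule for named genes were chosen with earlier results of these data known. The rule named the 10 members, Ppp2r1a, Xist, genes of the regulator, turnover and lysosomal lists at an unadjusted p under 0.05, the 5 genes most like H2-Eb1 and Cd74, and 4 region neighbours of smallest p. Other genes named, those of the marker lists included, were chosen after their values were seen. Promoters came from RefSeq (GRCm38.p6). Summaries used matplotlib 3.10.9, scipy 1.17.1, numpy 2.4.6 and pandas 2.3.3 under Python 3.11.15. Alternatives were median-ratio or quantile scaling, a minimum of 5 FPKM or none, a pseudocount of 0.5 or 0.1, no trend, a term for libraries with Xist above 1 FPKM, and each library left out. 1 item is not reported here.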

Additional observations from a re-analysis of the deposited data

How the results depend on the processing

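No paired analysis was possible because the labels carry no replicate numbers. The log2 changes of H2-Eb1, H2-Eb2, H2-DMa, H2-Oa, H2-Ob and Cd74 stayed negative, and that of H2-DMb1 positive, in all 14 other settings. Leaving out 1 library moved the change of H2-Eb1 between -3.03 and -1.58, where -3.03 came without PP2Aa-deficient replicate 2 (limma adjusted p = 0.000101). The same step moved H2-Aa between -0.037 and 0.12, H2-Ab1 between -0.069 and 0.077, and H2-DMb2 between -0.0020 and 0.082, so their signs turned. Quantile normalization gave -0.17 for H2-Aa and -0.14 for H2-Ab1. It also brought the log2 ratio of H2-DMa to H2-Ab1 from -0.43 to -0.20 and that of Cd74 to H2-Ab1 from -0.33 to -0.062. The count of members lower in every mutant library was 3 of 10 under quantile normalization (against 7.29% of all genes), losing H2-Oa and H2-Ob, and 5 to 6 with any library left out (against 11.3% to 15.2%). The count at an unadjusted p under 0.05 was 3 to 5 with a library left out (against 3.1% to 4.73%) and 4 to 6 otherwise (against 3.68% to 4.97%). Over all genes limma called 3 lower and 0 higher. It called 5 lower and 4 higher with no mean-variance trend, 1 higher with no filter, 3 higher with the filter at 5 FPKM and 7 higher under quantile normalization. With a library left out it called 1 to 12 lower and 0 to 4 higher. Ppp2r1a passed limma without PP2Aa-deficient replicate 2 (log2 change -1.48, limma adjusted p = 0.00555). The cause of these shifts was not tested. With 3 libraries a group, changes of the size of Cd74 lay near the spread between libraries.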

Other observations

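Among abundant genes of the marker lists, some also had PP2Aa-deficient replicate 2 nearest to WT, of which 3 are given. Ccr7, a chemokine receptor gene, was at 1279, 1512 and 1598 FPKM in the WT libraries, against 1019, 1423 and 981 FPKM in the PP2Aa-deficient ones. Igj, the joining chain of polymeric antibodies, was at 1167, 816 and 792 FPKM in the WT libraries, against 199.5, 461 and 186 FPKM in the PP2Aa-deficient ones. Apoe, a lipoprotein gene, was at 326, 212 and 159 FPKM in the WT libraries, against 79.1, 139.9 and 77.3 FPKM in the PP2Aa-deficient ones. Replicate 2 held 97.3% of the WT mean in Ccr7, 49.8% in Igj and 60.3% in Apoe. The less abundant Emr1, Sdc1 and Flt3 also had replicate 2 nearest to WT. Other marker genes did not, among them Clec9a, Itgax, Xbp1 and Mzb1. Xbp1 was at 70.5%, 65.7% and 57.4% of the WT mean in PP2Aa-deficient replicates 1 to 3, and Mzb1 at 89.4%, 82.9% and 86.2%. The share of all genes with replicate 2 nearest to WT was not counted. Ccr7, Igj and Apoe did not pass limma over all genes, and were chosen after their values were seen.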
